A study of Homo sapiens with 12 samples.

Results

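The genes described here are the chaperones of the endoplasmic reticulum (ER) with the genes for protein import into the ER and for disposal of misfolded proteins. A list of 36 symbols was matched to the gene symbols of the array annotation. Of these, 33 genes had a probe set with 1 gene symbol among 11963 such genes, and DNAJB11, SYVN1 and SEC61G were not analysed here. By role, the 33 genes are 16 chaperones and folding enzymes, 3 genes of the stress sensors and their effector, 6 of ER-associated degradation and 8 of translocation. A gene was tested if its probe set lay above the median of its array on at least 3 arrays. This left 32 of the 33 genes and 6821 genes in all, since ERN1, the sensor IRE1, lay between 2.42 and 2.56 on the log2 scale and above the median on 0 arrays.

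LNCaP is a human prostate carcinoma line that keeps luminal features. By the sample titles, the cells overexpressed miR-205, miR-203 or miR-130a, or expressed a scramble microRNA as the control. Each of the 4 groups was measured on 3 arrays whose titles call them biological replicates. All groups therefore share the cell line and an added small RNA, and no group without one was analysed here. No dose, time of treatment or form of the microRNA is given in the sources used here. A lower value in such a bulk sample cannot tell fewer cells of a type from less RNA per cell.

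The deposited log2 values run from 2.36 to 13.95 and the array medians lie between 2.76 and 2.78. Pearson correlations over genes were 0.992 to 0.997 between arrays of a group and 0.964 to 0.986 between groups. All 7 luminal prostate markers analysed here lay above the array median on at least 3 arrays. Of the basal markers 0 of 4 did, and of leukocyte and endothelial markers 0 of 7. ENO2 did so among 5 neuroendocrine markers, and COL1A1 and ACTA2 among 8 markers of fibroblasts and smooth muscle.

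Secreted and membrane proteins enter the ER through the SEC61 channel, to which the signal recognition particle receptor delivers the ribosome. Inside, the HSP70 chaperone BiP, the HSP90 homologue GRP94, the lectins calnexin and calreticulin and the protein disulfide isomerases fold them, and proteins that fail are returned to the cytosol for degradation. When unfolded proteins build up, the sensors IRE1, ATF6 and PERK start the unfolded protein response, in which spliced XBP1 and cleaved ATF6 switch on many of the genes described here. Prostate luminal cells are secretory and lean on this machinery.

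The mature sequences of the overexpressed microRNAs are shown so that their seeds, which pair with target mRNAs, can be set side by side. The labels name no arm. The arms shown are the commonly studied ones, from RefSeq (GRCh38.p14), at chr14:104117469-104117490 on the plus strand for miR-203a-3p and at chr1:209432166-209432187 on the plus strand for miR-205-5p. Capitals mark the seed, bases 2 to 8. For miR-130a, hsa-miR-130a-3p is named only.
hsa-miR-203a-3p: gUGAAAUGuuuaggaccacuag
hsa-miR-205-5p: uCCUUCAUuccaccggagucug

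The first comparison asked whether the ER genes differed between cells given a microRNA and cells given the scramble control. Differences are on the log2 scale, microRNA group minus scramble, each with its standard error (SE) from a limma fit. A gene passed at a Benjamini-Hochberg adjusted p under 0.05 over all 6821 genes. With miR-203, 21 of the 32 tested members fell and 2 rose. Over all genes, 18.9% passed as lower and 17.3% as higher. The median member difference was -0.38, against 0.01 for all tested genes. With miR-130a, 10 members fell and 1 rose, where 11.6% of all genes passed as lower and 12% as higher, and the median was -0.12 against -0.01. With miR-205, 6 members fell and 0 rose, where 14.8% of all genes passed as lower and 11.3% as higher. Its median was -0.10 against 0 for all genes, and its 18.8% of members lower lay close to the share of all genes. The 3 comparisons share the scramble arrays, so their counts are not independent of each other. By the moderated F-test for any difference among the 4 groups, 25 of 32 members passed (78.1%), against 60.8% of all genes. The members were chosen with earlier results of these data known, so shares above those of all genes describe the list.

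Beside the lower ER genes with miR-203 stands a lower luminal marker sum. The summed log2 values of the 7 luminal markers were 53.38 to 54.25 with miR-203, against 57.58 to 58.69 with scramble, 57.95 to 58.22 with miR-130a and 58.73 to 59.44 with miR-205. The part of this shift in the ER gene result was not tested. The basal markers, which would mark another prostate cell type, summed to 9.58 to 9.60 with miR-203 and 9.58 to 9.59 with scramble, all below the array medians. With miR-130a, the 8 markers of fibroblasts and smooth muscle summed to 21.39 to 21.84, against 20.79 to 21.06 with scramble, 20.51 to 21.06 with miR-203 and 20.84 to 20.87 with miR-205. Of these 8, 5 were above the median on 0 arrays, and the part of this shift in the miR-130a result was not tested.

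**Figure D1:**
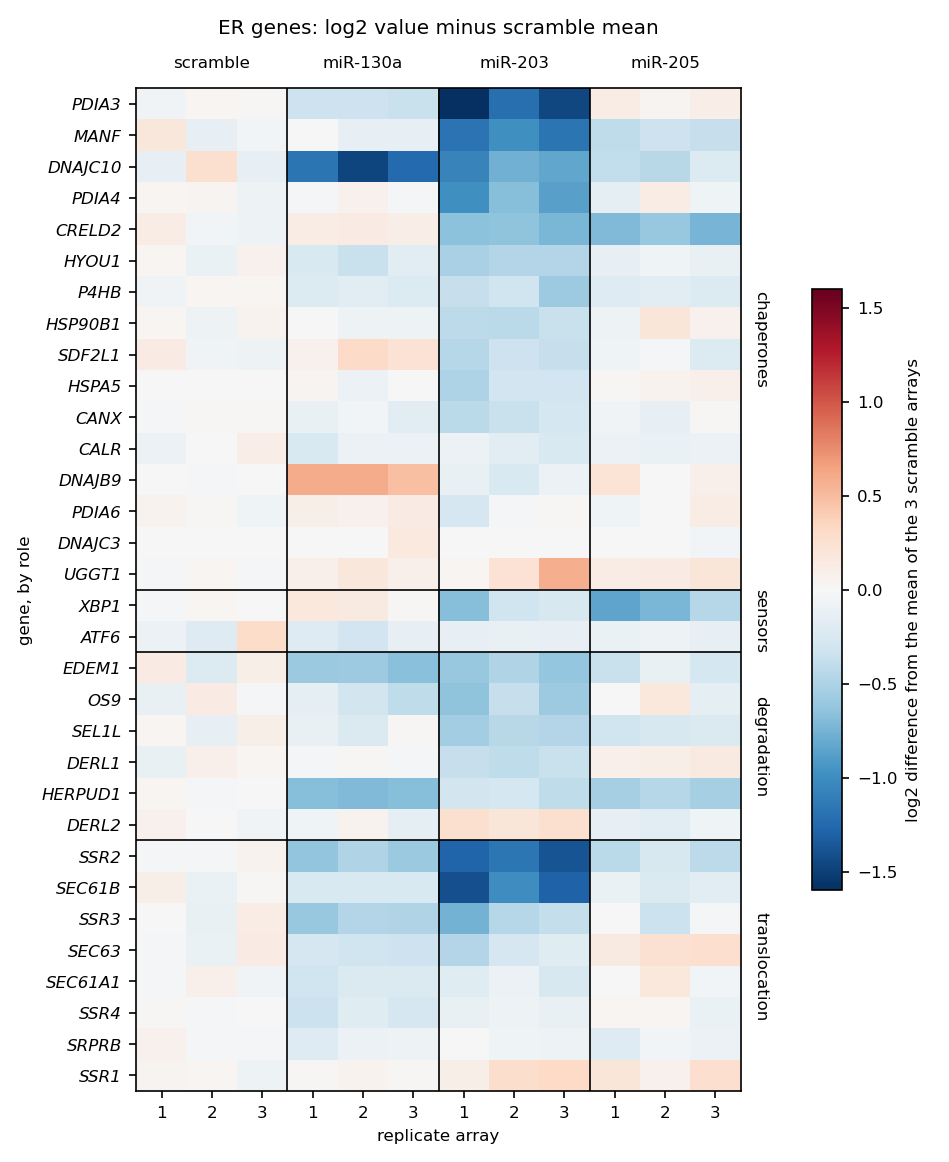
Heat map of the 32 tested ER genes (vertical, grouped by role) on the 12 arrays (horizontal, 3 replicate arrays in each of 4 groups). Colour gives the log2 value minus the mean of the 3 scramble arrays, blue for lower and red for higher. The miR-203 columns hold most of the deep blue cells, among them PDIA3, MANF, SEC61B and SSR2, while DNAJC10 is bluest with miR-130a.

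The group with the lowest mean was miR-203 for 19 of the 32 members and scramble for 2, where 25.8% and 20.2% of all tested genes had their lowest mean in these groups. Scramble had the highest mean for 16 members, and for 21% of all tested genes. All 3 miR-203 arrays lay below the other 9 arrays for 14 members (43.8%), against 9.76% of all genes. Set directly against each of the other 3 groups, 12 of the 32 members passed as lower with miR-203 every time, where 8.12% of all genes did. These were HSPA5, HSP90B1, HYOU1, MANF, SDF2L1, PDIA3, PDIA4, P4HB, CANX, DERL1, SEC61B and SSR2. The same count was 2 with miR-130a (DNAJC10 and HERPUD1; 3.94% of all genes) and 0 with miR-205 (6.03% of all genes).

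Among the chaperones and folding enzymes, PDIA3, MANF, DNAJC10 and PDIA4 fell furthest with miR-203. Of the 16 tested, 11 fell with miR-203 and 0 rose, with a median of -0.39. With miR-130a 3 fell and 1 rose, and with miR-205 2 fell and 0 rose. The medians there were -0.03 and -0.04. The shares that fell, 68.8% with miR-203, 18.8% with miR-130a and 12.5% with miR-205, stand beside 18.9%, 11.6% and 14.8% of all genes, so that with miR-205 the share lay under that of all genes.

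PDIA3 (ERp57) is the disulfide isomerase that works with calnexin and calreticulin on glycoproteins. Its log2 values were 10.42, 10.50 and 10.49 with scramble, 10.14, 10.14 and 10.12 with miR-130a, 8.84, 9.26 and 9.01 with miR-203, and 10.59, 10.52 and 10.58 with miR-205. The miR-203 arrays stood apart from all others, and the miR-130a arrays lay between them and scramble without overlap. The difference was -1.44 ± 0.09 (SE, n = 3 per group; limma adjusted p = 1.29e-07) with miR-203, a 2.71-fold lower value, the largest fall among the members. With miR-130a it was -0.34 ± 0.09 (adjusted p = 0.0169). That call was lost without miR-130a replicate 3 (adjusted p = 0.0518) and without scramble replicate 3 (adjusted p = 0.0532).

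PDIA4 (ERp72) is a further disulfide isomerase. Its values were 6.38, 6.39 and 6.27 with scramble, 6.31, 6.41 and 6.31 with miR-130a, 5.36, 5.66 and 5.48 with miR-203, and 6.20, 6.47 and 6.28 with miR-205. Scramble, miR-130a and miR-205 overlapped, and miR-203 lay below all of them, by 0.84 ± 0.09 under scramble (limma adjusted p = 1.77e-05). P4HB, the founding disulfide isomerase, fell by 0.43 ± 0.07 with miR-203 (adjusted p = 0.000668) and had all 3 arrays below scramble with each microRNA. Its differences of -0.20 with miR-130a and with miR-205 did not pass (adjusted p = 0.0739 and 0.0674). A second P4HB probe set gave -0.46 with miR-130a, -0.61 with miR-203 and -0.43 with miR-205. The mean of the P4HB probe sets passed with miR-130a (-0.33, limma adjusted p = 0.00703) and with miR-205 (-0.31, adjusted p = 0.00777). PDIA6 showed -0.09 ± 0.08 with miR-203 at its brightest probe set and did not pass. Its 3 other probe sets gave -0.29, -0.31 and -0.35, and their mean with the brightest, -0.26, passed.

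MANF, a secreted factor that binds BiP and leaves stressed cells, showed the second largest chaperone fall with miR-203. Its values were 8.01, 7.69 and 7.78 with scramble, 7.82, 7.70 and 7.69 with miR-130a, 6.64, 6.84 and 6.66 with miR-203, and 7.42, 7.49 and 7.46 with miR-205. The 4 groups fell into 3 levels, with scramble and miR-130a overlapping, miR-205 below them and miR-203 lowest. MANF fell by 1.11 ± 0.09 with miR-203 (limma adjusted p = 1.11e-06) and by 0.36 ± 0.09 with miR-205 (adjusted p = 0.00853).

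CRELD2 encodes a small ER protein induced by ER stress. Its values were 7.21, 7.05 and 7.01 with scramble, 7.21, 7.22 and 7.19 with miR-130a, 6.43, 6.44 and 6.36 with miR-203, and 6.39, 6.48 and 6.35 with miR-205. The miR-203 and miR-205 arrays shared 1 range and lay below the rest. The difference was -0.68 ± 0.07 with each of them (limma adjusted p = 1.19e-05 with miR-203 and 1.95e-05 with miR-205), and 0.12 ± 0.07 with miR-130a, which did not pass.

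DNAJC10 (ERdj5) is a J-domain reductase that hands misfolded proteins to degradation. Its values were 6.10, 6.49 and 6.10 with scramble, 5.06, 4.76 and 4.98 with miR-130a, 5.16, 5.46 and 5.40 with miR-203, and 5.84, 5.79 and 6.01 with miR-205. Unlike PDIA3, it was lowest with miR-130a. DNAJC10 fell by 1.30 ± 0.12 with miR-130a (limma adjusted p = 7.42e-06), the largest fall among the members in that comparison, and by 0.89 ± 0.12 with miR-203 (adjusted p = 0.000119). Its second probe set gave -1.29 and -0.96. With miR-205 the difference of -0.35 did not pass (adjusted p = 0.0519). The second probe set gave -0.32 there, and the mean of the probe sets passed (-0.34, limma adjusted p = 0.00719).

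DNAJB9 (ERdj4), a BiP cochaperone, was the one member that rose with miR-130a. Its values were 6.05, 6.02 and 6.05 with scramble, 6.64, 6.63 and 6.52 with miR-130a, 5.92, 5.79 and 5.94 with miR-203, and 6.26, 6.05 and 6.12 with miR-205. The miR-130a arrays lay above all others and the miR-203 arrays below all others. The rise was 0.56 ± 0.07 (limma adjusted p = 0.000155), and a second probe set gave 0.59. The miR-203 difference of -0.16 did not pass (adjusted p = 0.108).

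The central HSP70 and HSP90 chaperones and calnexin fell by smaller amounts, all of them with miR-203. HSPA5 (BiP), the central ER chaperone, read 11.23 on each scramble array and 10.74 to 10.92 with miR-203, while it lay between 11.14 and 11.31 on the other 6 arrays. It fell by 0.37 ± 0.07 with miR-203 (limma adjusted p = 0.00136). HSP90B1 (GRP94) fell by 0.40 in the same comparison, HYOU1 (GRP170), the exchange factor of BiP, by 0.48, SDF2L1, a partner of ER J-proteins, by 0.38 and CANX, the membrane lectin calnexin, by 0.35. For HSP90B1 the mean of its probe sets gave -0.18, its second probe set being above the median on 1 array. HYOU1 also fell by 0.26 with miR-130a (adjusted p = 0.018), a call lost without miR-130a replicate 2 (adjusted p = 0.0849) and without scramble replicate 3 (adjusted p = 0.0718).

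No call was made for DNAJC3, PDIA6, CALR or UGGT1 against scramble. CALR, the soluble lectin calreticulin, differed by -0.15 with miR-130a, -0.17 with miR-203 and -0.10 with miR-205. UGGT1, which tags misfolded glycoproteins for another folding round, was not above the median on any scramble array (2.65, 2.70 and 2.64) and lay above it on 6 arrays in all. DNAJC3 was dim and flat at 3.56 to 3.76. The miR-203 differences of CALR and UGGT1 passed in some other settings. Among these were weighted arrays (-0.22 and 0.27, limma adjusted p = 0.0242 and 0.028).

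**Figure D2:**
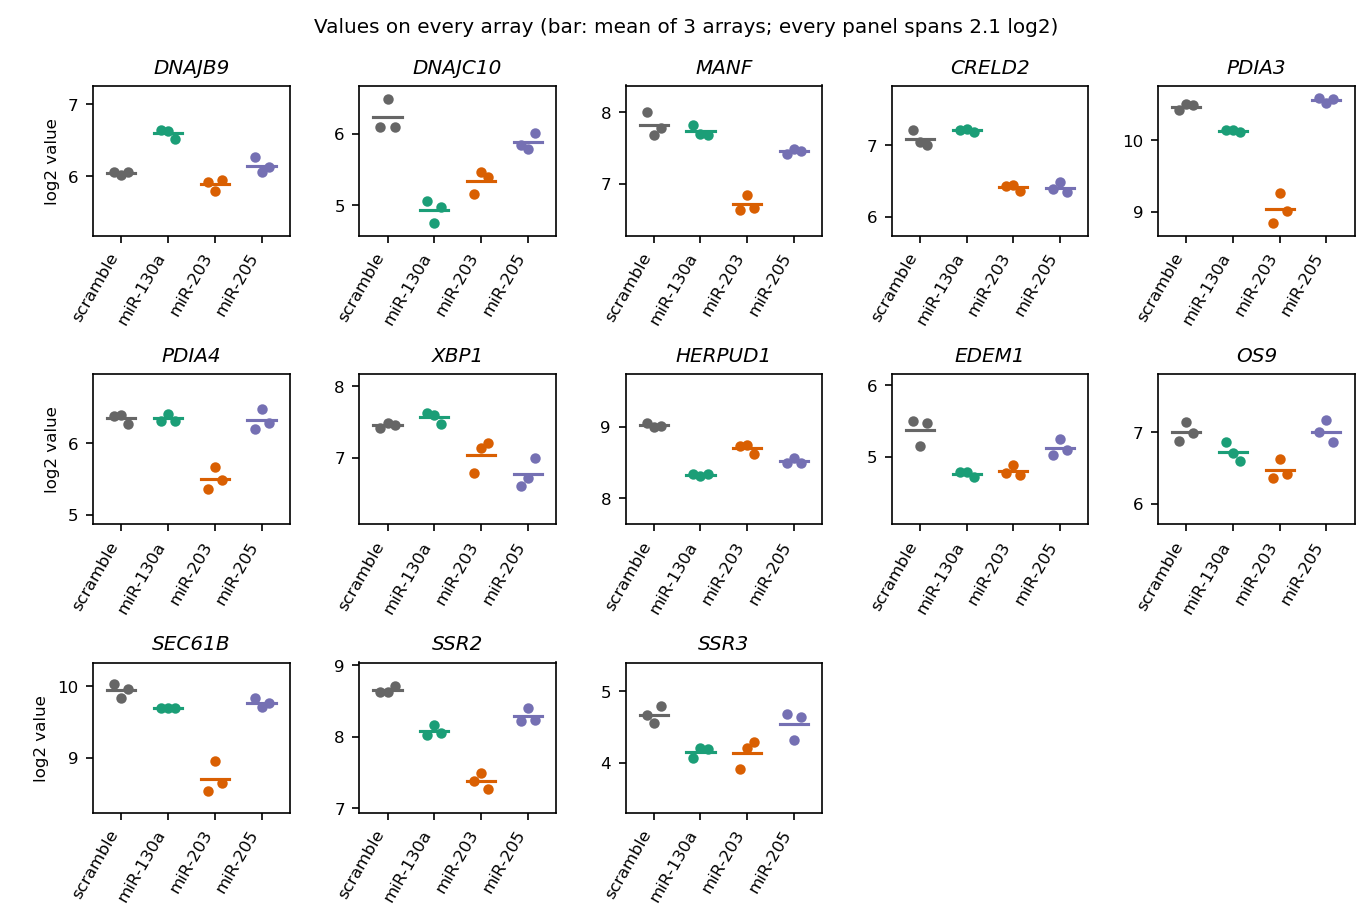
Log2 values (vertical axis, every panel spanning the same range) of the 13 members that passed with a difference of at least 0.5 in any comparison with scramble, on each of 3 arrays for scramble, miR-130a, miR-203 and miR-205 (horizontal axis). Points are arrays and bars are group means. The miR-203 points of PDIA3, PDIA4, MANF, SEC61B and SSR2 lie below every other array, and the miR-130a points of DNAJC10 and HERPUD1 lie lowest in their panels.

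Many of these genes carry ER stress response elements in their promoters, so the 250 bases before each start were searched, on both strands, in RefSeq promoters (GRCh38.p14). The elements were ERSE (CCAAT and CCACG with 9 bases between), ERSE-II (ATTGG and CCACG with 1 base between) and the core of the UPRE (TGACGTGG), sites known for ATF6 and XBP1. Of the 36 members, 34 matched the table, and PDIA3 and DERL1 are named only. ERSE was found in 7 of 34 (20.6%), against 0.0916% of 27305 genes, ERSE-II in 3 (8.82%), against 0.0659%, and the UPRE core in 4 (11.8%), against 0.78%. The elements were partly defined on some of these very genes, so the shares describe the list.

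The ERSE windows are shown because this element is a known site of ATF6 and XBP1. Capitals mark the fixed letters, with 12 flanking bases on each side, written on the strand that carries the element. They lie at chr9:125241379-125241421 (minus strand) for HSPA5, chr12:103930204-103930246 (plus) and chr12:103930309-103930351 (minus) for HSP90B1, chr22:49918542-49918584 (minus) for CRELD2, chr5:179698766-179698808 (plus) for CANX and chr22:28800591-28800633 (minus) for XBP1. CALR, at chr19:12938372-12938414 (minus), and PDIA6, at chr2:10812841-10812883 (minus), hold the element and made no call.
HSPA5: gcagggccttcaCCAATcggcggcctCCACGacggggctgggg
HSP90B1, farther from the start: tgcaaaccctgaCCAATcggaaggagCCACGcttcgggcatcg
HSP90B1, nearer to the start: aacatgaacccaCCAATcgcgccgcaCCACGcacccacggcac
CRELD2: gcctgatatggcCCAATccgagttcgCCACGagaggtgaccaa
CANX: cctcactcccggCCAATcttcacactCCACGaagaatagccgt
XBP1: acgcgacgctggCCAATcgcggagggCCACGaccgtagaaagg
CALR: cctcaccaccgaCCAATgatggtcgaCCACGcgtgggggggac
PDIA6: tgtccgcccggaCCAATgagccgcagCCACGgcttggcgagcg

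The ERSE-II windows are shown for HERPUD1, the member lower with all 3 microRNAs whose promoter holds an element, at chr16:56932013-56932047 (plus strand), and for HYOU1 and SDF2L1. HYOU1 holds the element at chr11:119057262-119057296 and chr11:119057368-119057402 (plus) and SDF2L1 at chr22:21642102-21642136 (minus). The UPRE core of DNAJC10, the member that fell furthest with miR-130a, lies at chr2:182716120-182716151 (minus). The core was also found in HYOU1, where it overlaps an ERSE-II match, and in SSR3 and SSR4.
HERPUD1: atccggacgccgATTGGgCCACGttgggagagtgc
HYOU1, nearer to the start: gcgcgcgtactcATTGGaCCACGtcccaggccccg
HYOU1, farther from the start: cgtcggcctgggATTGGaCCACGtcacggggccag
SDF2L1: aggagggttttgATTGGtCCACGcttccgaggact
DNAJC10, UPRE core: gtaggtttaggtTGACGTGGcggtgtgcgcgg

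The members with and without the ERSE letters were then set side by side. With miR-203, 8 of 10 tested members with ERSE or ERSE-II fell, with a median of -0.38. Of 20 tested members with neither, 11 fell and 2 rose, with a median of -0.38 as well. With miR-130a, 2 of the 10 and 7 of the 20 fell, with medians of -0.03 and -0.20. With miR-205, 3 of the 10 and 3 of the 20 fell, and both medians were -0.11. These medians carry no test, and a match or its absence says nothing about which factor was bound in these cells.

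**Figure D3:**
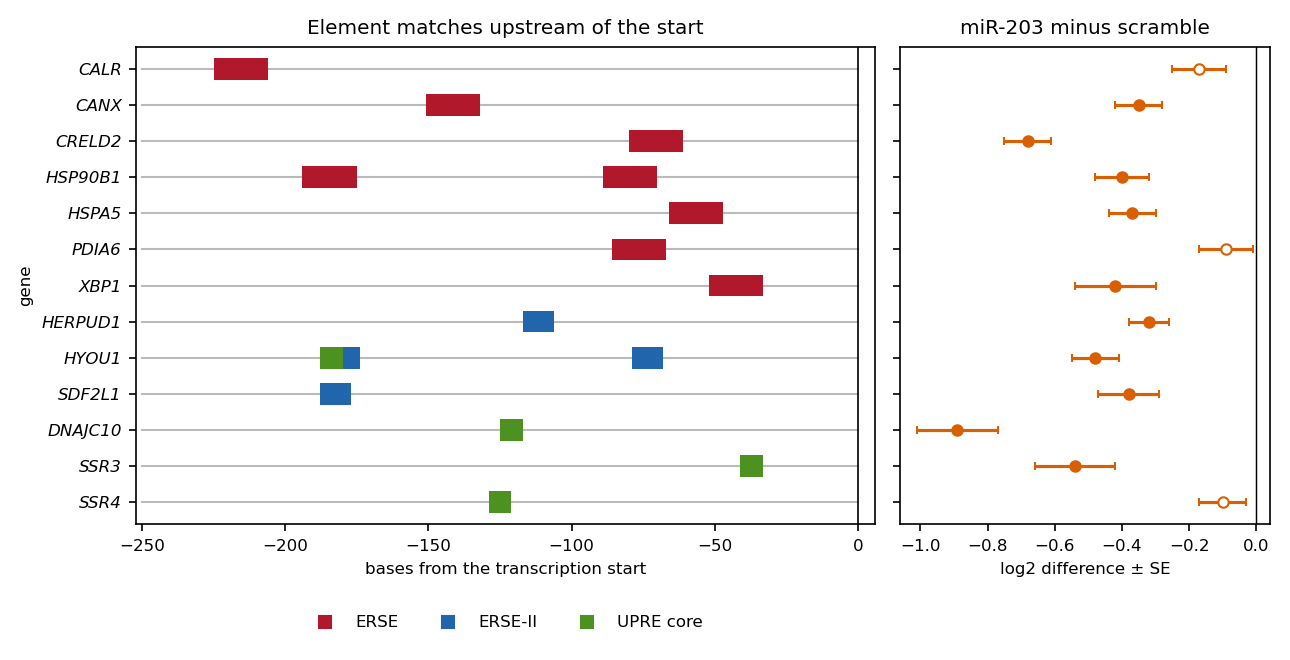
Left, positions of ERSE, ERSE-II and UPRE core matches (coloured boxes) in the 250 bases before the start of each tested member that has one; the horizontal axis is the distance from the start in bases. Right, the log2 difference of miR-203 minus scramble for the same genes with its SE, filled where it passed. The matches of HSPA5, CRELD2 and XBP1 lie within 100 bases of the start, and CALR and PDIA6 are among the unfilled points.

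Among the sensors and their effector, XBP1 alone passed. XBP1 encodes the transcription factor that IRE1 activates by splicing its mRNA, and the values do not tell its spliced from its unspliced form. They were 7.42, 7.49 and 7.46 with scramble, 7.63, 7.60 and 7.47 with miR-130a, 6.78, 7.14 and 7.20 with miR-203, and 6.61, 6.72 and 7.00 with miR-205. The miR-203 and miR-205 arrays overlapped each other and lay below the other groups. XBP1 fell by 0.69 ± 0.12 with miR-205 (limma adjusted p = 8e-04), the largest fall among the members there, and by 0.42 ± 0.12 with miR-203 (adjusted p = 0.0128). The miR-203 call was lost when no filter on dim probe sets was used (adjusted p = 0.0544). ATF6, a membrane-bound sensor that is itself a transcription factor, differed by -0.21 with miR-130a, -0.13 with miR-203 and -0.11 with miR-205, none of which passed. When the arrays were weighted, its miR-130a difference passed (-0.32, limma adjusted p = 0.0316).

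All 6 tested degradation genes passed with miR-203, 5 lower and 1 higher, with a median of -0.43. With miR-130a 2 fell, with a median of -0.20, and with miR-205 2 fell, with a median of -0.19. The shares that fell were 83.3% with miR-203 and 33.3% with each of the others, of only 6 genes. Of all genes, 18.9% passed as lower with miR-203, 11.6% with miR-130a and 14.8% with miR-205.

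HERPUD1 (HERP), which organises the ubiquitin ligase complex in the ER membrane, was lower with each microRNA. Its values were 9.06, 9.00 and 9.02 with scramble, 8.34, 8.32 and 8.34 with miR-130a, 8.73, 8.75 and 8.62 with miR-203, and 8.50, 8.57 and 8.49 with miR-205. The 4 groups did not overlap, in the order miR-130a, miR-205, miR-203 and scramble from low to high, and each step of that order passed. HERPUD1 fell by 0.69 ± 0.06 with miR-130a (limma adjusted p = 5.77e-06), by 0.50 ± 0.06 with miR-205 (adjusted p = 8.81e-05) and by 0.32 ± 0.06 with miR-203 (adjusted p = 0.00156). Between neighbours, miR-130a minus miR-205 was -0.19 (adjusted p = 0.0383) and miR-203 minus miR-205 was 0.18 (adjusted p = 0.0411).

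EDEM1 is a lectin that takes trimmed glycoproteins out of the folding cycle. Its values were 5.50, 5.15 and 5.47 with scramble, 4.78, 4.79 and 4.71 with miR-130a, 4.77, 4.89 and 4.75 with miR-203, and 5.02, 5.25 and 5.09 with miR-205. It was low with miR-130a and miR-203 to a like degree, and the miR-205 arrays overlapped scramble. EDEM1 fell by 0.61 ± 0.10 with miR-130a (limma adjusted p = 0.00052) and by 0.57 ± 0.10 with miR-203 (adjusted p = 0.00054). The difference between these groups was -0.04, with a 95% interval of -0.25 to 0.17.

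OS9, a further lectin of degradation, read 6.88, 7.14 and 6.99 with scramble, 6.86, 6.71 and 6.60 with miR-130a, 6.36, 6.63 and 6.42 with miR-203, and 7.00, 7.17 and 6.86 with miR-205. The miR-203 arrays lay below scramble and miR-205 and overlapped miR-130a. OS9 fell by 0.53 ± 0.11 with miR-203 (limma adjusted p = 0.00171), and its miR-130a difference of -0.28 did not pass (adjusted p = 0.0713).

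SEL1L, the scaffold of the ligase complex, fell by 0.49 ± 0.08 with miR-203 (limma adjusted p = 0.000583), a call lost with the probe set of largest variance (adjusted p = 0.116). Its fall with miR-205, 0.27 (adjusted p = 0.0301), was lost under 10 of 21 settings and was -0.02 with that probe set. DERL1 and DERL2 are both derlins, membrane proteins of the exit channel, and moved in opposite directions with miR-203. DERL1 fell by 0.38 ± 0.07 (adjusted p = 0.000982), its other probe set gave -1.44, and the mean of its probe sets gave -0.91. DERL2 rose by 0.23 ± 0.07 (adjusted p = 0.0239), a call lost without scramble replicate 2 (0.0561), scramble replicate 3 (0.0814), miR-203 replicate 1 (0.0586) or miR-203 replicate 3 (0.0548).

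The translocation genes fell in part with miR-203 and miR-130a. Of 8 tested, 4 fell and 1 rose with miR-203 (median -0.25), 5 fell with miR-130a (median -0.26) and 1 fell with miR-205 (median -0.06). The shares that fell, 50%, 62.5% and 12.5% in that order, stand beside 18.9%, 11.6% and 14.8% of all genes. With miR-205 the share lay under that of all genes.

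SEC61B is the beta subunit of the channel. Its values were 10.03, 9.83 and 9.96 with scramble, 9.69, 9.70 and 9.70 with miR-130a, 8.53, 8.95 and 8.64 with miR-203, and 9.83, 9.71 and 9.77 with miR-205. The miR-203 arrays lay far below the other 9. SEC61B fell by 1.23 ± 0.10 with miR-203 (limma adjusted p = 1.12e-06), whereas SEC61A1, the channel's pore subunit, showed -0.19 there and did not pass (adjusted p = 0.0737). SEC61A1 fell by 0.26 ± 0.08 with miR-130a (adjusted p = 0.0266), a call lost without any 1 of the miR-130a arrays or scramble replicate 2 (adjusted p of 0.0551 to 0.0926).

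SSR2, the beta subunit of the translocon-associated protein complex that assists import of some signal sequences, fell in all 3 comparisons. Its values were 8.63, 8.63 and 8.71 with scramble, 8.02, 8.17 and 8.06 with miR-130a, 7.38, 7.50 and 7.27 with miR-203, and 8.22, 8.40 and 8.24 with miR-205. No array of a microRNA group reached the scramble range, and miR-203 was lowest. The falls were 1.28 ± 0.08 with miR-203 (limma adjusted p = 1.29e-07), 0.58 ± 0.08 with miR-130a (adjusted p = 0.000216) and 0.37 ± 0.08 with miR-205 (adjusted p = 0.00409).

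The other 3 subunits of that complex passed in fewer comparisons. SSR3, the gamma subunit, read 4.67, 4.55 and 4.79 with scramble, 4.06, 4.20 and 4.19 with miR-130a, 3.91, 4.21 and 4.29 with miR-203, and 4.68, 4.32 and 4.64 with miR-205. It was lower with miR-130a and miR-203 and overlapped scramble with miR-205. SSR3 fell by 0.52 ± 0.12 with miR-130a (limma adjusted p = 0.00581) and by 0.54 ± 0.12 with miR-203 (adjusted p = 0.0029). SSR4, the delta subunit, fell with miR-130a by 0.27 ± 0.07 (adjusted p = 0.0109). SSR1, the alpha subunit, rose by 0.23 ± 0.08 with miR-203 (adjusted p = 0.0366), a call lost under 10 of 21 settings, in which the adjusted p was 0.0503 to 0.462.

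SEC63, the J-domain partner that recruits BiP to the channel, was lower with 2 microRNAs and not with the third. It fell by 0.30 with miR-130a (limma adjusted p = 0.0224) and by 0.32 with miR-203 (adjusted p = 0.0119). With miR-205 it was 0.22 above scramble without passing (adjusted p = 0.0835). These values are from its brightest probe set. The other probe sets of SEC63 gave -0.18 and -0.17 with miR-130a, -0.59 and -0.39 with miR-203, and -0.13 and -0.01 with miR-205. The miR-130a call was lost without miR-130a replicate 2 (0.0643), miR-130a replicate 3 (0.0723) or scramble replicate 3 (0.0983). The miR-203 call was lost without scramble replicate 3 (0.0554) and when the 6 arrays were fitted alone (0.059). SRPRB, a subunit of the signal recognition particle receptor, made no call.

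**Figure D4:**
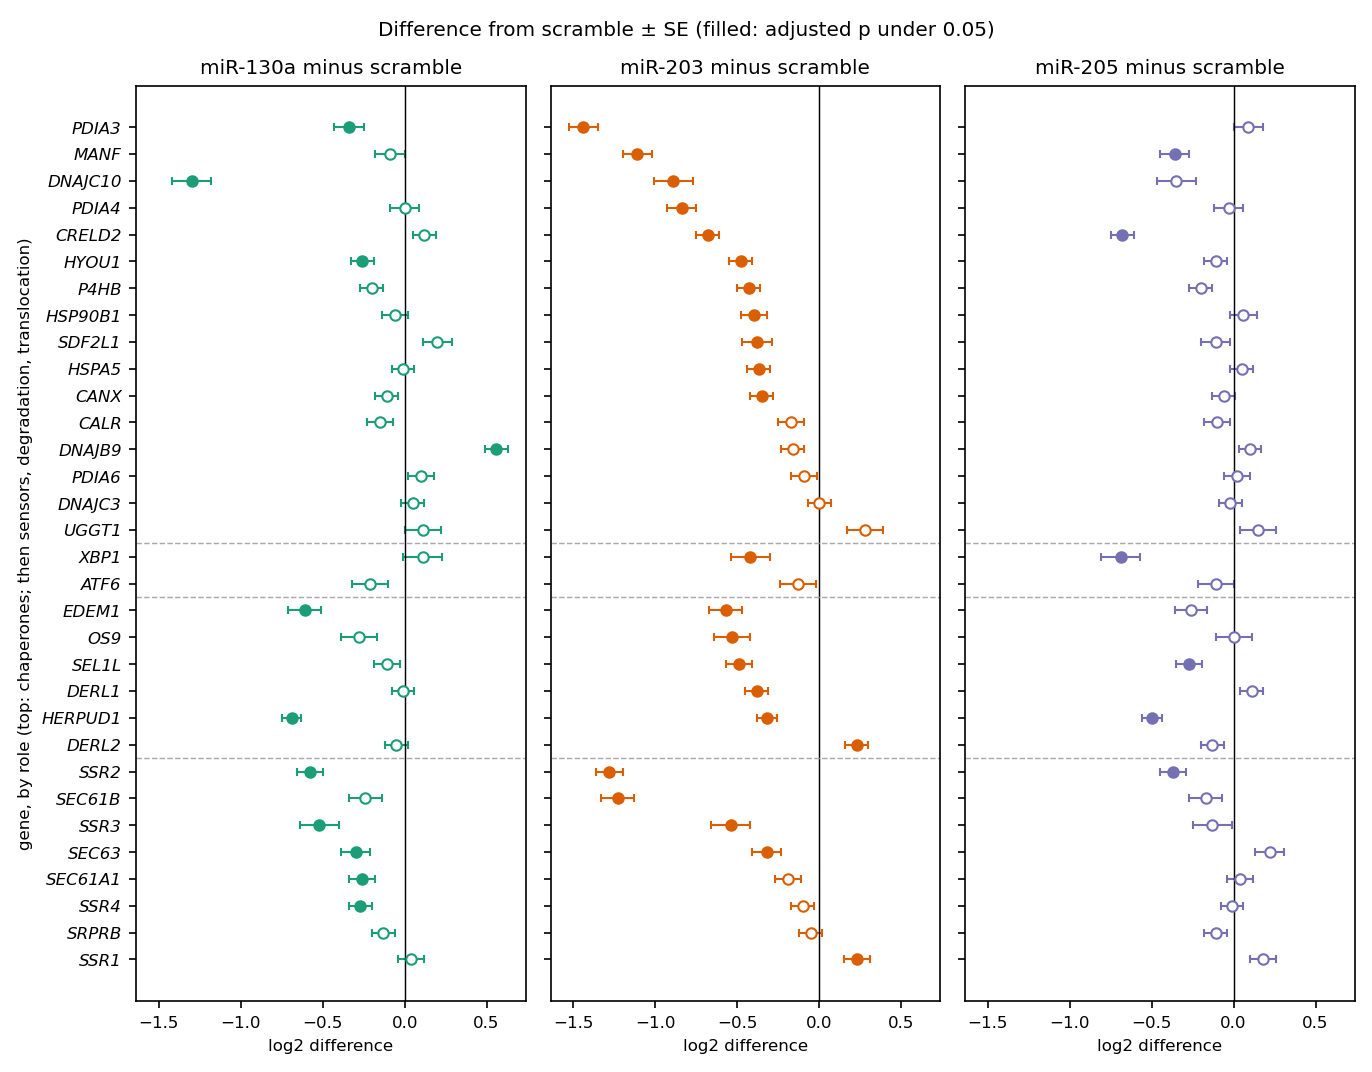
Log2 difference from scramble (horizontal axis) with its SE for the 32 tested members (vertical axis, by role) in the miR-130a, miR-203 and miR-205 comparisons. Filled points passed at an adjusted p under 0.05. The miR-203 panel has 21 filled points below 0, the miR-130a panel 10 and the miR-205 panel 6.

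**Figure D5:**
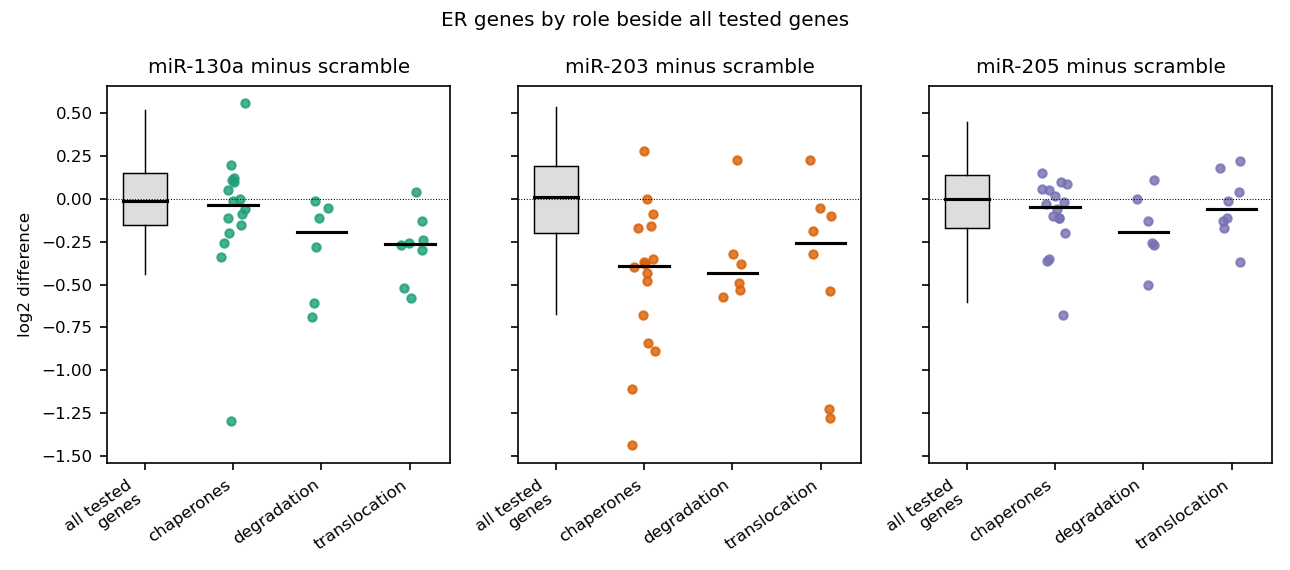
Log2 difference from scramble (vertical axis) of chaperone, degradation and translocation genes (points, one per gene, with the median as a bar) beside all 6821 tested genes (box from the 25th to the 75th percentile, whiskers to the 5th and 95th). With miR-203 the medians of chaperones and degradation genes, -0.39 and -0.43, lie below the box, whose lower edge is -0.20.

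Large falls were more frequent among the 32 members than among all genes with miR-203 and with miR-130a. At least 0.5 lower and past the threshold were 10 of 32 members with miR-203 (9% of all genes) and 5 of 32 with miR-130a (3.64%). With miR-205 they were 3 of 32, near the 6.57% of all genes, and HERPUD1 among them fell by 0.50. The middle 90% of all tested genes ran from -0.67 to 0.54 with miR-203. PDIA3, SSR2, SEC61B, MANF, DNAJC10, PDIA4 and CRELD2 lay below that range.

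The microRNA groups were also compared with each other, in the same fit, so that the scramble arrays enter the estimate of the spread but not the differences. Between miR-130a and miR-203, 16 members were higher with miR-130a and 3 lower (21.1% and 20.1% of all genes). PDIA3 stood 1.10 ± 0.09 higher with miR-130a (limma adjusted p = 1.14e-06), MANF 1.02, SEC61B 0.99, PDIA4 0.84, CRELD2 0.80 and DNAJB9 0.72. DNAJC10 (-0.41, adjusted p = 0.0182), HERPUD1 (-0.36, adjusted p = 0.000538) and DERL2 (-0.28, adjusted p = 0.00719) were lower with miR-130a.

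Between miR-203 and miR-205, 19 members were lower with miR-203 and 2 higher (16.9% and 21.0% of all genes). PDIA3 was 1.53 ± 0.09 lower with miR-203 (limma adjusted p = 6.69e-08), the largest difference among the members in any of the 6 comparisons, and SEC61B 1.06 lower. HERPUD1 and DERL2 were the 2 that were higher. CRELD2 differed by 0.00, with a 95% interval of -0.15 to 0.16, and XBP1 by 0.27, with an interval of 0.02 to 0.52 and an adjusted p of 0.0894.

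Between miR-130a and miR-205, 5 members were higher with miR-130a and 8 lower (18.2% and 15.4% of all genes). CRELD2 and XBP1 stood 0.80 and 0.79 higher with miR-130a (limma adjusted p = 2.38e-06 and 0.000164), with DNAJB9, SDF2L1 and MANF. DNAJC10 was 0.95 lower (adjusted p = 6.23e-05), SEC63 0.52 lower at its brightest probe set and PDIA3 0.43 lower. HERPUD1, EDEM1, SEC61A1, SSR3 and SSR4 were also lower.

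Other probe sets of the members gave a look at the direction. In 13 members, 21 other probe sets lay above the array median on at least 3 arrays. With miR-203 these 21 had the sign of the probe set used, 14 of them in members that passed. With miR-130a 14 of 21 did, including the 4 in members that passed, and with miR-205 12 of 21 did, including the 2 in members that passed. A pair of dimmer probe sets was left out of these counts. That of HSP90B1, above the median on 1 array, gave 0.03 with miR-203 where the one used gave -0.40, and that of SEL1L, above it on 0 arrays, gave 0.

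The neighbouring genes of the pathway were taken from 5 lists of further genes, of which 167 were on the arrays and 157 were tested. Over these lists 51 fell and 18 rose with miR-203, 35 fell and 13 rose with miR-130a, and 29 fell and 14 rose with miR-205. As shares of the genes tested, lower calls were 32.5%, 22.3% and 18.5%, where 18.9%, 11.6% and 14.8% of all genes passed as lower. The genes named from each list are those with the largest differences that passed.

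Of 33 other folding genes, 13 fell and 2 rose with miR-203, 11 fell and 1 rose with miR-130a, and 6 fell and 2 rose with miR-205. As shares, 39.4%, 33.3% and 18.2% fell, beside 18.9%, 11.6% and 14.8% of all genes, so that with miR-205 the share lay near that of all genes. With miR-203, CALU, a calcium-binding protein of the secretory pathway, fell by 1.22 ± 0.09 (limma adjusted p = 4.33e-07), HSPA13, an HSP70 relative, by 0.95 and PPIB, the ER prolyl isomerase cyclophilin B, by 0.92. With miR-130a, RCN1, another calcium-binding protein, fell by 0.76 and HSPA13 by 0.53, while TRAM2, a translocon-associated protein kept in this list, rose by 1.10. With miR-205, GANAB, the catalytic subunit of glucosidase II, fell by 1.46 ± 0.14 (adjusted p = 9.29e-06) and its partner PRKCSH by 0.43, and HSPA13 fell by 0.44. The HSPA13 calls with miR-130a and miR-205 were lost when its most variable probe set stood for the gene (adjusted p = 0.0771 and 0.0708).

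The 26 other degradation genes did not share the members' direction. With miR-203, 10 rose and 4 fell, with a median of 0.07, and with miR-130a and with miR-205 5 rose and 3 fell. The shares that fell, 15.4% with miR-203 and 11.5% with each of the others, were at or under those of all genes, and 38.5% rose with miR-203 where 17.3% of all genes did. MARCHF6, a ubiquitin ligase of the ER membrane, rose by 1.07 ± 0.16 with miR-130a (limma adjusted p = 0.000461) and by 1.20 ± 0.16 with miR-205 (adjusted p = 0.000155). Its rise with miR-203 was 0.67 ± 0.16 (limma adjusted p = 0.00646). With miR-203, ERLIN2 fell by 0.88, EDEM2, a relative of EDEM1, by 0.74, and RAD23B, which shuttles ubiquitinated proteins to the proteasome, rose by 0.71. With miR-205, BAG6 fell by 0.91 and FAM8A1 rose by 0.78. FAM8A1 also passed as higher with miR-130a (0.37) and with miR-203 (0.43). FAF2 rose by 0.42 with miR-130a, and NPLOC4 by 0.56, a call lost without scramble replicate 2 (adjusted p = 0.0563), without miR-130a replicate 2 (0.056) and with no filter (0.0729).

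Of 39 other translocation and glycosylation genes, 6 fell and 3 rose with miR-130a, 7 fell and 1 rose with miR-203, and 9 fell and 3 rose with miR-205. The shares that fell, 15.4%, 17.9% and 23.1%, stand beside 11.6%, 18.9% and 14.8% of all genes, so that with miR-203 the share lay near that of all genes. TRAM1, which sits beside the channel, fell by 1.83 ± 0.11 with miR-205 (limma adjusted p = 2.35e-07), by 0.65 with miR-203 and by 0.64 with miR-130a. The mean of its probe sets gave -0.41 with miR-130a. DPM2 rose by 0.84 and EMC3 fell by 0.38 with miR-130a. STT3A, a catalytic subunit of the oligosaccharyltransferase, and ALG5 each fell by 0.45 with miR-203, and ALG6 and ALG9 fell by 0.62 and 0.54 with miR-205.

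Of 24 other stress signalling genes, 11 fell and 2 rose with miR-203, 6 fell and 1 rose with miR-130a, and 7 fell and 0 rose with miR-205. As shares, 45.8%, 25% and 29.2% fell, beside 18.9%, 11.6% and 14.8% of all genes. The same 3 genes led each comparison, all of them downstream of PERK and ATF4. CHAC1, a glutathione-degrading enzyme, differed by -1.45 with miR-130a, -1.20 with miR-203 and -1.90 ± 0.14 with miR-205 (limma adjusted p = 1.29e-06 with miR-205). In the same order, DDIT3 (CHOP), a stress transcription factor, differed by -1.39, -1.10 and -1.37, and TRIB3, a pseudokinase, by -1.22, -1.28 and -1.28. All 9 differences passed, but the 3 comparisons share the scramble arrays, so they are not independent of each other. ATF4 itself, also in this list, differed by -1.08, -1.03 and -0.99 in that order, and each difference passed. CHAC1, DDIT3 and TRIB3 fell by more with miR-205 than any ER member did.

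Of 35 genes of ER to Golgi traffic, 16 fell and 3 rose with miR-203 (median -0.29), 9 fell and 3 rose with miR-130a (median -0.14), and 4 fell and 4 rose with miR-205 (median 0.02). In shares, 45.7%, 25.7% and 11.4% fell, beside 18.9%, 11.6% and 14.8% of all genes. With miR-205 the share lay under that of all genes. With miR-203, the vesicle coat genes SEC24D and SEC24A fell by 1.26 ± 0.25 (limma adjusted p = 0.00157) and 0.92, and YIPF5 by 0.89. The means of their probe sets gave -0.44 for SEC24D and -0.39 for SEC24A. With miR-130a, SAR1A, the GTPase that starts the coat, rose by 0.97, ARCN1, a coatomer subunit, fell by 0.85, and SEC24D fell by 0.75 (adjusted p = 0.0419), a call lost without scramble replicate 2 (-0.52, adjusted p = 0.165) and 5 other arrays in turn. The mean of its probe sets gave -0.27 there (adjusted p = 0.0524), and the call was also lost with no filter (0.182) and with the 6 arrays alone (0.0983). With miR-205, SEC13 and SEC16A fell by 0.52 and 0.45 and SEC31A rose by 0.44.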

How the data were processed

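RNA from 12 arrays (4 groups of 3) was compared. The authors deposited log2 values for 22277 probe sets; the submitters' processing notes name RMA, limma and R 2.9.0, and give in the sources used here no background method or build. Of the probe sets, 19070 have 1 gene symbol and were used, 1043 have several and 2164 none, and 0 symbols needed updating. Each gene took its probe set of highest mean over the 12 arrays, and the tested genes exceeded the array median on at least 3 arrays. For HSP90B1, probe sets that also name another gene were left out.

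Group means over all 12 arrays were fitted with limma 3.58.1 in R 4.3.3 with eBayes moderation (residual degrees of freedom 8, prior 4.84). Tests were two-sided, adjusted by Benjamini-Hochberg at 0.05, and the code was tested on simulated data. An exact permutation of 3 against 3 arrays cannot give p under 0.1, so none is given. P-values set a difference between group means against the moderated spread between arrays within groups, pooled over the 4 groups. Exactly equal values on arrays of a group occur for 7 of 32 members and 20.9% of tested genes, which narrows their spread. The number of arrays limits the precision.

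All 36 members are named. A member has its value on every array if it passed with a difference of at least 0.5 log2 against scramble. Other pathway genes are the up to 3 largest that passed per list and comparison, with ATF4 and further differences of MARCHF6 and FAM8A1 added. The members and lists were chosen with earlier results of these data known. Alternatives were the dim filter, the probe set per gene, scaling, the arrays fitted, a replicate block, array weights, an intensity trend and each array left out.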

Additional observations from a re-analysis of the deposited data

How the results depend on the processing

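Of 40 member differences from scramble that passed, 30 kept their call in all 21 settings, 10 lost it in at least 1 and 0 reversed. Of 56 that did not pass, 15 passed in at least 1 setting. Members higher with miR-203 than scramble numbered 1 instead of 2 with no filter on dim probe sets, with the probe set of largest variance, with probe sets averaged per gene, with the 6 arrays alone and with the replicate block. Against miR-205 they numbered 1 instead of 2 with the probe set of largest variance, the 6 arrays alone and the replicate block. Members higher with miR-205 than scramble numbered 1 instead of 0 with the mean of probe sets and with array weights. Those lower with miR-130a than miR-203 numbered 5 instead of 3 with the mean of probe sets, centring on the tested genes, array weights and an intensity trend. Those higher with miR-130a than scramble numbered 2 instead of 1 with array weights. The cause was not tested.

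With each array left out in turn, members lower than scramble numbered 7 to 11 with miR-130a, 20 to 21 with miR-203 and 5 to 7 with miR-205, and members higher 1 to 1, 0 to 2 and 0 to 1. Between miR-130a and miR-203, 14 to 17 were higher and 2 to 5 lower. Between miR-130a and miR-205, 3 to 5 were higher and 6 to 9 lower. Between miR-203 and miR-205, 1 to 2 were higher and 15 to 20 lower. The F-test passed 24 to 27.

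The titles number the replicates, but not every pair of arrays with the same number deviated together, so the numbers were not taken to pair the samples. Over 18 such pairs the correlation of deviations was -0.11 to 0.31, above 0.1 in 3, and over 36 pairs of different numbers it was -0.28 to 0.16. With the replicate number as a block, 11 members were lower and 1 higher with miR-130a than scramble, 21 and 1 with miR-203, and 6 and 0 with miR-205.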
